A study of Arabidopsis with 22 samples.

Results

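NLR genes encode intracellular immune receptors with a central nucleotide-binding domain and, in most members, leucine-rich repeats. Of 57 listed Arabidopsis loci of the coiled-coil and TIR classes, named after the N-terminal domain of the protein, 56 were in the expression table of 25218 transcripts, 23 of the coiled-coil class and 33 of the TIR class. The loci were listed as members of these gene classes with no threshold on a measured value, and the class of each was assigned by hand from background knowledge. RNA from 25-day-old whole plants grown in 12 h light and 12 h dark was sequenced 1 h and 13 h after light onset, at ZT1 and ZT13. The genotypes were *acd6-1lux-1*, which carries both mutations, *acd6-1*, a gain-of-function mutant of *ACD6* with constitutive defense and dwarfism, *lux-1*, with an early nonsense mutation in the clock gene *LUX*, and wild-type Col-0, the background of all mutants. Each genotype had 3 libraries at ZT1. At ZT13 *lux-1* and Col-0 had 3 libraries each, and *acd6-1lux-1* and *acd6-1* had 2 libraries each.

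NLR proteins detect pathogen effectors directly or through the host proteins that effectors modify, and active receptors set off calcium influx, salicylic acid (SA) accumulation and local cell death. TIR-type receptors signal through the lipase-like proteins *EDS1*, *PAD4* and *SAG101* and helper NLRs of the *ADR1* and *NRG1* families, whereas some coiled-coil receptors act as channels in the plasma membrane themselves. Too much receptor causes autoimmunity and dwarfism, so transcript levels are kept in check, and SA itself raises the transcription of many NLR genes. *LUX* is part of the evening complex of the circadian clock, a repressor of transcription around dusk.

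Levels are given as RPKM, reads per kilobase of coding length and per unit of mapped reads. Changes are given as differences on the log2(RPKM + 1) scale, called log2 fold changes here, on which the change of a weakly expressed gene comes out too small. All libraries entered 1 limma model, and a gene was called higher or lower at a Benjamini-Hochberg adjusted p under 0.1 over the 21666 genes whose mean RPKM was above 0.3 in at least 1 of the 8 groups. Of the 56 NLR genes, 54 passed this filter, 22 of the coiled-coil and 32 of the TIR class, and *RLM1* and AT4G27190 did not. The genes AT1G17615, AT1G63870, AT4G27220 and AT5G38350 passed only through groups that carry *acd6-1*, so their difference from Col-0 is partly built into the filter. Reads were single and came from 51 sequencing cycles, and how reads that fit several near-identical paralogs were treated is not given in the sources used here. Values within the *RPP4* to *RLM3* stretch, the AT5G41740 and AT5G41750 pair and the AT1G61180 to AT1G61310 group may therefore share reads, and reads from overlapping antisense transcripts may be included too.

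The libraries held 10306552 to 16224975 mapped reads. *LUX*, whose mutant transcript is still made, had 65.3 to 70.8 RPKM in *acd6-1lux-1* and 6.1 to 8.17 RPKM in *acd6-1* at ZT13, and 71.4 to 81 RPKM in *lux-1* and 6.1 to 6.84 RPKM in Col-0. The SA marker *PR1* had 1160 to 3600 RPKM in *acd6-1lux-1*, 5210 to 6040 RPKM in *acd6-1*, 19.4 to 126 RPKM in *lux-1* and 15.7 to 45.5 RPKM in Col-0 at ZT1. In *acd6-1lux-1* library 3 at ZT1, 60.51% of the reads mapped and chloroplast genes took 0.661% of the recovered reads, against 79.84% to 81.59% and 0.013% to 0.024% in the other 21. Leaf markers (5 photosynthesis genes) summed to 29000 to 32900 RPKM at ZT1 in *acd6-1* and 67900 to 71500 RPKM in Col-0, and all 5 were lower in *acd6-1* at both times. In whole plants, a change in the share of cells that express a gene and a change in RNA per cell cannot be told apart.

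The NLR genes covered a wide range of levels. Averaged over the 8 group means, the median NLR gene had 9.34 RPKM, close to 9.47 RPKM for the median gene of the table, with medians of 8.92 RPKM for the coiled-coil class and 10.7 RPKM for the TIR class. The highest levels were those of *ZAR1* (174 RPKM), *RLM3* (138 RPKM) and AT5G41750 (115 RPKM). The lowest were those of AT4G27190 (0.036 RPKM), *RLM1* (0.0899 RPKM) and AT1G63870 (0.172 RPKM). In all, 26 NLR genes averaged above 10 RPKM and 6 averaged below 1 RPKM, and 7 had a median of under 30 reads per library. The summed RPKM of the 56 genes at ZT1 was 1251 to 1575 in *acd6-1lux-1*, 1632 to 1986 in *acd6-1*, 658.7 to 698.6 in *lux-1* and 628.6 to 689.9 in Col-0. At ZT13 it was 1914 to 1982 in *acd6-1lux-1*, 1883 to 2094 in *acd6-1*, 1013 to 1106 in *lux-1* and 969.9 to 1091 in Col-0. The sums of the *acd6-1lux-1* and *acd6-1* libraries did not overlap at ZT1 and did at ZT13, while those of *lux-1* and Col-0 overlapped at both times. Such sums weigh the genes with the highest RPKM most. At ZT1 AT5G41740, AT5G41750 and *ZAR1* averaged 48.6, 58.2 and 165 RPKM in *acd6-1lux-1* and 189, 205 and 248 RPKM in *acd6-1*. Of the 54 NLR genes tested, 13 were called lower and 5 higher there, beside 10.9% and 22.8% of all genes. The median log2 fold change was -0.06, against 0.09 over all genes.

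**Figure D1:**
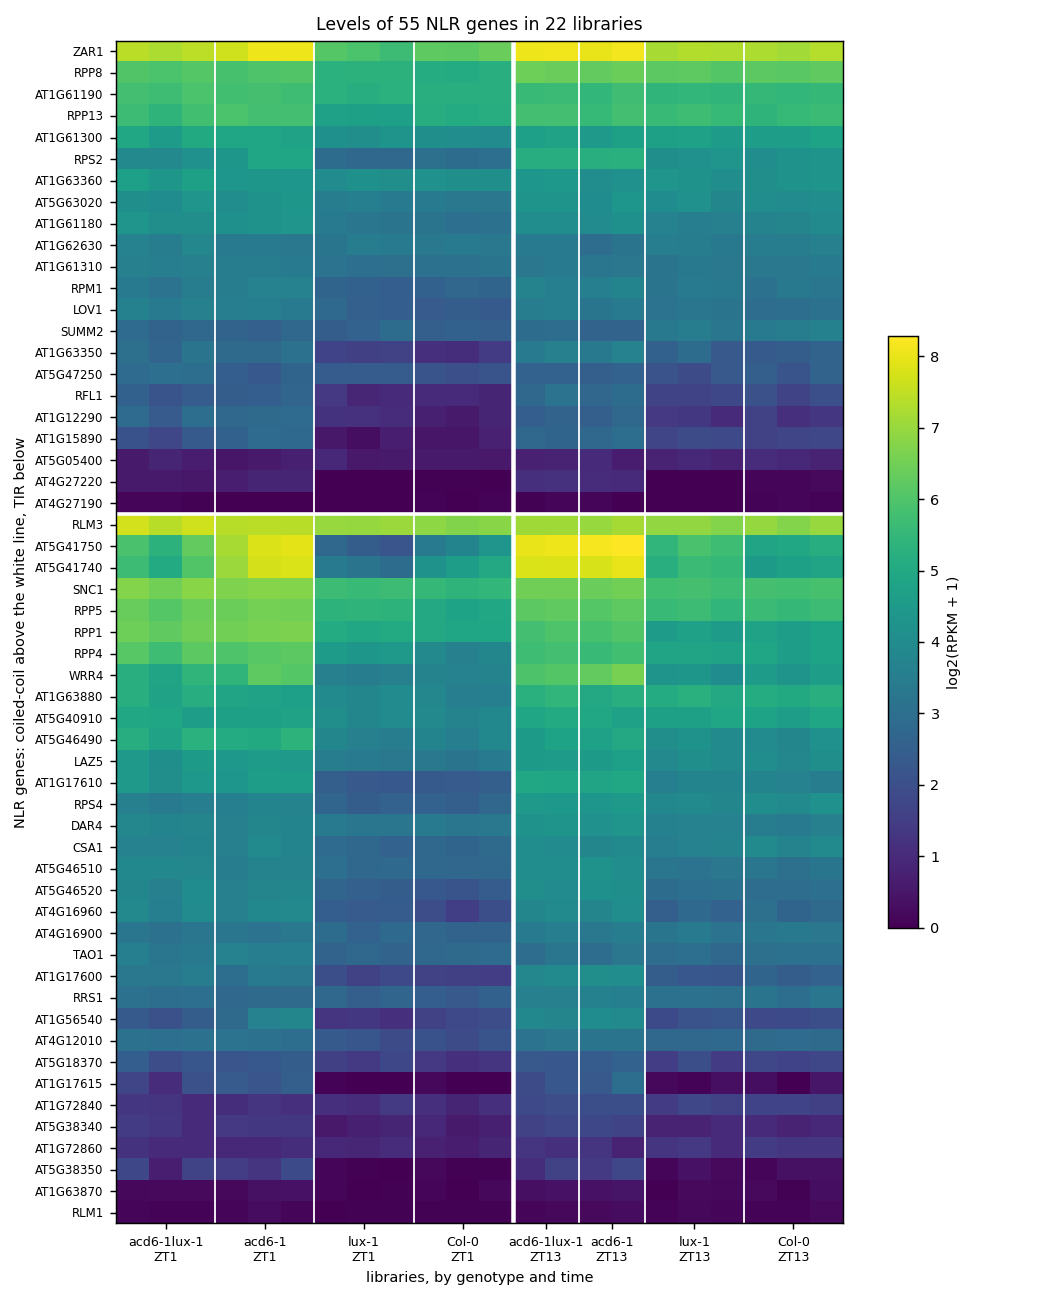
Heat map of log2(RPKM + 1) for 55 of the 56 NLR genes (rows, coiled-coil above the white line and TIR below it, each ordered by mean level) in the 22 libraries (columns, ZT1 left and ZT13 right, by genotype). The *acd6-1lux-1* and *acd6-1* columns are brighter than the *lux-1* and Col-0 columns for most genes, and the largest spread between columns is in AT5G41740, AT5G41750 and *WRR4*.

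The NLR transcripts were broadly higher in *acd6-1* than in Col-0 in the morning. At ZT1, 49 of the 54 NLR genes tested were called higher, 29 of them by more than 1 on the log2 scale, with a median log2 fold change of 1.05 against 0.03 over all genes tested. Over all genes, 37.2% were called higher and 31% lower. The share of all genes called higher by more than 1 was not counted, so the 29 has no figure beside it. None of the 54 was called lower by limma, at an adjusted or an unadjusted p, or by edgeR. Of the 50 NLR genes that passed the filter without the help of groups carrying *acd6-1*, 45 were higher, with the same median. Quantile normalization moved the median of all genes to -0.12 and the split of all calls to 29.6% higher and 42.1% lower, with 47 NLR genes still called higher and a median of 0.88. The libraries of the 2 genotypes did not overlap for 50 of the 54 NLR genes, as for 70.8% of all genes.

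Both classes took part, with 19 of 22 coiled-coil genes and 30 of 32 TIR genes called higher at ZT1. These counts include the 4 genes that passed the filter only through groups carrying *acd6-1*. The genes not called were AT1G62630, AT5G05400 and *SUMM2* of the coiled-coil class and AT1G72840 and AT1G72860 of the TIR class. The 5 largest log2 fold changes on the scale with a pseudocount of 1 were those of AT5G41750, AT5G41740, *RPP4*, AT1G17615 and *WRR4*, all TIR genes, and the largest of the coiled-coil class were those of AT1G15890 and AT1G12290, at 2.19 and 2.11.

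AT5G41750 and AT5G41740 lie next to each other on chromosome 5. AT5G41750 had 146, 227 and 242 RPKM at ZT1 in *acd6-1* and 9.99, 12.2 and 19 RPKM in Col-0 (log2 fold change 3.82, SE 0.25, adjusted p = 9.4e-10). AT5G41740 had 129, 215 and 224 RPKM in *acd6-1* and 18.2, 23.7 and 30.8 RPKM in Col-0 (log2 fold change 2.91, SE 0.24, adjusted p = 1.2e-08). The lowest *acd6-1* library exceeded the highest Col-0 library several times over in each. At ZT13 AT5G41750 had 286 and 309 RPKM in *acd6-1* and 27.5, 29.9 and 34.8 RPKM in Col-0, and AT5G41740 had 219 and 254 RPKM in *acd6-1* and 21.7, 24.9 and 27.8 RPKM in Col-0. Their log2 fold changes at ZT13 were 3.24 (SE 0.28, adjusted p = 9.9e-08) and 3.2 (SE 0.26, adjusted p = 7.5e-08), also the largest among the NLR genes on the log2(RPKM + 1) scale. AT1G17615, which encodes a protein with TIR and nucleotide-binding domains, was near the detection limit in the absence of *acd6-1*. It had 203 reads over the 3 *acd6-1* libraries at ZT1 and 2 reads over the 3 Col-0 libraries, and 178 reads over 2 *acd6-1* libraries and 9 reads over 3 Col-0 libraries at ZT13. For so few reads in Col-0 the fitted difference depended on the pseudocount and the tool. It was 2.3 at ZT1 and 2.39 at ZT13 with a pseudocount of 1, and 6.19 and 4.75 by edgeR, above the values of AT5G41750, which reached at most 4.06 and 3.35 under any alternative. *WRR4*, a white rust resistance gene, had 41.3, 73.4 and 67.6 RPKM at ZT1 in *acd6-1* and 12, 11.6 and 11.9 RPKM in Col-0 (log2 fold change 2.23, SE 0.18, adjusted p = 8.5e-09).

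Among the coiled-coil receptors of known function, *ZAR1*, which forms a channel on activation, was high in every group. It had 206, 270 and 267 RPKM at ZT1 in *acd6-1* and 73.2, 72.3 and 82.3 RPKM in Col-0 (log2 fold change 1.68, SE 0.11, adjusted p = 9.4e-10), and 253 and 280 RPKM in *acd6-1* and 152, 140 and 162 RPKM in Col-0 at ZT13 (0.81, SE 0.12, adjusted p = 3.5e-05). *RPS2*, which guards *RIN4*, had 19.9, 28 and 28.1 RPKM at ZT1 in *acd6-1* and 7.22, 6.64 and 7.08 RPKM in Col-0 (1.71, SE 0.11, adjusted p = 1.4e-09), and 35.1 and 37.1 RPKM in *acd6-1* and 15.8, 17.8 and 18.6 RPKM in Col-0 at ZT13 (1.01, SE 0.13, adjusted p = 5.9e-06). The libraries of *acd6-1* and Col-0 were apart for both genes at both times. *RPM1*, another guard of *RIN4*, changed less, with 10.4, 11.6 and 11.7 RPKM in *acd6-1* and 4.94, 5.69 and 5.41 RPKM in Col-0 at ZT1 (0.94, SE 0.1, adjusted p = 4.4e-07). *RPP8* and *RPP13*, which give resistance to downy mildew, were higher in *acd6-1* at ZT1 by 0.83 (SE 0.06, adjusted p = 3.8e-09) and 0.71 (SE 0.09, adjusted p = 3.6e-06). At ZT13 *RPP8* still passed, at 0.15 (adjusted p = 0.097), and *RPP13* did not, with 45.7 and 54.4 RPKM in *acd6-1* and 40.3, 45.7 and 48.5 RPKM in Col-0.

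*SUMM2*, which monitors a MAP kinase cascade, went the other way in the evening. It had 5.26, 4.82 and 5.83 RPKM at ZT1 in *acd6-1* and 4.62, 4.9 and 4.7 RPKM in Col-0, a difference that was not called. At ZT13 it had 5.28 and 5.26 RPKM in *acd6-1* and 9.45, 10.1 and 11.5 RPKM in Col-0 (log2 fold change -0.85, SE 0.13, adjusted p = 4.9e-05). The level in *acd6-1* was thus close at both times, and the evening level of Col-0 lay above every *acd6-1* library.

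Of the receptors that work in pairs, both genes of 1 pair were higher in *acd6-1* at both times, and of another pair 1 gene was. *RPS4* and *RRS1* are neighbors whose proteins act as 1 receptor, with a WRKY domain in *RRS1* as the bait. At ZT1 *RPS4* had 11, 12.2 and 11.9 RPKM in *acd6-1* and 5.09, 4.7 and 5.57 RPKM in Col-0 (1.06, SE 0.09, adjusted p = 3.4e-08). *RRS1* had 5.8, 6.29 and 6.19 RPKM in *acd6-1* and 4.59, 3.93 and 4.94 RPKM in Col-0 (0.37, SE 0.09, adjusted p = 0.0023). At ZT13 both were higher in *acd6-1*, by 0.37 (SE 0.1, adjusted p = 0.0088) and 0.48 (SE 0.11, adjusted p = 0.0012). *CSA1* and *DAR4* (also called *CHS3*) form a second such pair. *CSA1* was higher in *acd6-1* by 0.98 at ZT1 (SE 0.1, adjusted p = 2.2e-07) and by 0.01 at ZT13 (SE 0.11, not called), whereas *DAR4* was higher by 0.38 at ZT1 (SE 0.08, adjusted p = 0.00028) and by 0.73 at ZT13 (SE 0.08, adjusted p = 2.6e-06). At ZT13 *DAR4* had 17.1 and 18.9 RPKM in *acd6-1* and 10.4, 9.9 and 11.1 RPKM in Col-0, and *CSA1* had 13 and 14.5 RPKM in *acd6-1* and 14.3, 12.1 and 14.5 RPKM in Col-0.

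The *RPP4* to *RLM3* stretch of chromosome 4 holds 6 of the TIR genes, *RPP4*, *SNC1*, AT4G16900, *RPP5*, AT4G16960 and *RLM3*. It lies 310 to 325 coding genes from *ACD6* on the same chromosome. A difference between the lines at linked sequence and the *acd6-1* mutation thus cannot be told apart for these genes in *acd6-1* against Col-0. *RPP4* and *RPP5* are downy mildew resistance genes, and a gain-of-function allele of *SNC1* causes autoimmunity. All 6 were higher in *acd6-1* at ZT1. *RPP4* had 63.5, 68.5 and 71.6 RPKM in *acd6-1* and 13.8, 11.1 and 12.9 RPKM in Col-0 (log2 fold change 2.34, SE 0.11, adjusted p = 5e-11). *SNC1* had 101, 109 and 107 RPKM in *acd6-1* and 44.4, 40.4 and 44 RPKM in Col-0 (1.28, SE 0.07, adjusted p = 2.2e-10). *RPP5* had 84.2, 92.8 and 89.6 RPKM in *acd6-1* and 31, 26.9 and 30.5 RPKM in Col-0 (1.56, SE 0.08, adjusted p = 1.3e-10). None of these libraries overlapped between the genotypes. AT4G16960 was also higher by 1.96 (SE 0.15, adjusted p = 5.5e-09), and *RLM3* and AT4G16900 by 0.6 and 0.56. At ZT13, 4 of the 6 were called higher, *RPP4* by 0.94 (SE 0.12, adjusted p = 9e-06), AT4G16960 by 1.05, *SNC1* by 0.63 and *RPP5* by 0.54. *RPP1*, a downy mildew resistance gene on chromosome 3, averaged 95.5 ± 4.63 RPKM at ZT1 in *acd6-1* and 29.4 ± 1.22 RPKM in Col-0 (SD, n = 3 each; 1.67, SE 0.08, adjusted p = 8.9e-11), and 57.1 and 63.7 RPKM in *acd6-1* and 26.1, 23.3 and 26.6 RPKM in Col-0 at ZT13 (1.22, SE 0.09, adjusted p = 3.9e-08).

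A further stretch of neighboring TIR genes lies on chromosome 1. AT1G17610 (*CHS1*), whose mutant is chilling-sensitive, had 19.2, 23.6 and 23.6 RPKM at ZT1 in *acd6-1* and 4.02, 4.24 and 4.67 RPKM in Col-0 (2.12, SE 0.11, adjusted p = 1.1e-10). Its neighbor AT1G17600 was higher by 1.66 (SE 0.12, adjusted p = 2.1e-09), and AT1G17615 is described above. The libraries of the genotypes were apart for all of them, and all were also called higher at ZT13.

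In the evening the difference between *acd6-1* and Col-0 was smaller. At ZT13, 37 of the 54 NLR genes tested were called higher and 3 lower, with a median log2 fold change of 0.51 against -0.06 over all genes, of which 22.3% were called higher and 26.5% lower. Without the 4 genes that passed through groups carrying *acd6-1*, 33 of 50 were higher, with a median of 0.44. By class, with these 4 genes kept in, 12 of 22 coiled-coil genes were higher and 2 lower, and 25 of 32 TIR genes were higher and 1 lower. The genes called lower were *SUMM2*, AT1G62630 (-0.47, SE 0.11, adjusted p = 0.0016) and AT1G72860 (-0.34, SE 0.14, adjusted p = 0.063). The call of AT1G72860 was lost without *acd6-1* library 2 (adjusted p = 0.61) or Col-0 library 1 (adjusted p = 0.17). In all, 36 NLR genes were higher in *acd6-1* at both times and 13 at ZT1 with no call at ZT13, *RPP13*, *CSA1*, *TAO1* and *RLM3* among them. The 36 include the 4 genes that passed only through groups carrying *acd6-1*. The share of all genes higher at both times was not counted. AT1G72840 was higher at ZT13 and not called at ZT1.

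**Figure D2:**
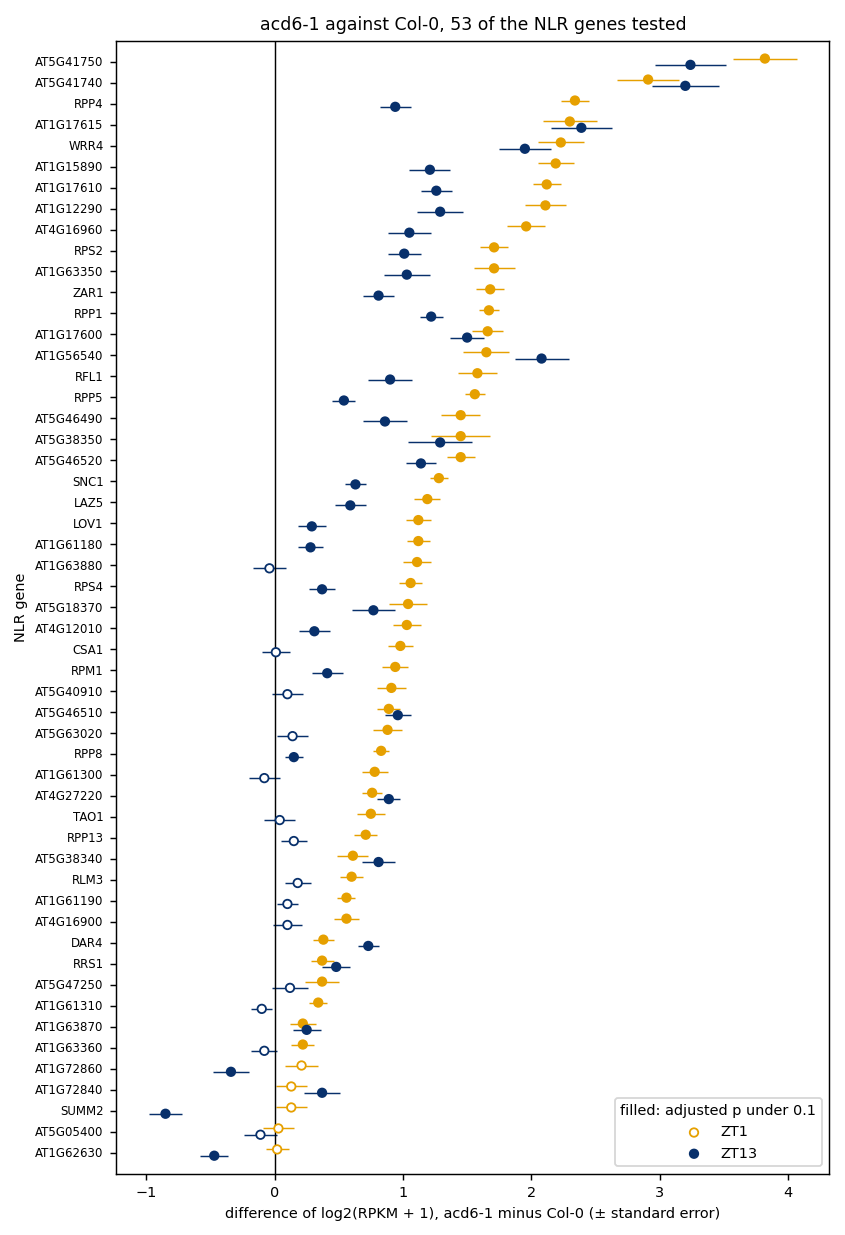
Difference of log2(RPKM + 1) between *acd6-1* and Col-0 (x axis, with standard error) for 53 of the 54 NLR genes tested (y axis, ordered by the ZT1 value), at ZT1 and ZT13, with filled points for an adjusted p under 0.1. The points at ZT1 lie at or right of 0, up to 3.82 for AT5G41750, and most points at ZT13 lie to the left of those at ZT1.

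The difference between the 2 times was itself tested. Effects are signed, so a smaller effect is a more negative one and a larger effect a more positive one. *SUMM2*, not called at ZT1 and lower in *acd6-1* at ZT13, thus counts as smaller. The *acd6-1* effect at ZT13 was smaller than that at ZT1 for 35 of the 54 NLR genes and larger for 1, with a median difference of -0.57 against -0.11 over all genes, of which 8.55% were called larger and 24.3% smaller. With median-of-ratios scaling the counts were 30 smaller and 1 larger, beside 17.7% and 14.8% of all genes, and with quantile normalization 26 and 1, beside 16% and 16.7%. The 5 genes with the largest drop were *RPP4* (-1.41, SE 0.17, adjusted p = 1.5e-05), AT1G63880 (-1.15, SE 0.17, adjusted p = 0.00013), *RPP5* (-1.03, SE 0.12, adjusted p = 1.8e-05), *SUMM2* (-0.98, SE 0.18, adjusted p = 0.00061) and AT1G15890 (-0.98, SE 0.21, adjusted p = 0.0025). The *RPP4* to *RLM3* stretch took part with 6 of 6 genes, the coiled-coil class with 18 of 22 and the TIR class with 17 of 32. For AT5G41750 the difference was -0.58 (SE 0.37, adjusted p = 0.27) and for AT5G41740 0.3 (SE 0.35, adjusted p = 0.59). *DAR4* alone was called larger at ZT13 (0.34, SE 0.11, adjusted p = 0.034), and without *acd6-1* library 2 at ZT13 it was not (adjusted p = 0.14).

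The 2 times were also compared within each genotype. In Col-0, 43 of the 54 NLR genes tested were higher at ZT13 than at ZT1 and 1 was lower, with a median of 0.62 against 0.24 over all genes, of which 45.6% were called higher and 14.4% lower. With median-of-ratios scaling, which moved the median of all genes to 0.02, 33 were higher and 1 lower with a median of 0.41, beside 28.5% and 25.9% of all genes. In *acd6-1*, 17 were higher at ZT13 and 10 lower, with a median of 0.12, the same as over all genes, of which 31.2% were called higher and 15.8% lower. With median-of-ratios scaling these counts turned to 8 higher and 15 lower and the median to -0.02, beside 22.3% and 22.7% of all genes. Without *acd6-1* library 1 at ZT13, 3 were lower. Of the 43 genes higher at ZT13 in Col-0, 14 were also higher in *acd6-1*, 22 were not called there and 7 were lower there, AT1G61300, AT1G61310, AT1G62630, *RPP4*, *RPP5*, *SNC1* and *TAO1*. The same split over all genes was not counted, so whether the NLR genes differ from it is not known.

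*RPS4* and *RRS1* were higher in the evening in both genotypes. *RPS4* had 15.7, 14.1 and 17.1 RPKM at ZT13 and 5.09, 4.7 and 5.57 RPKM at ZT1 in Col-0 (log2 fold change 1.44, SE 0.09, adjusted p = 7.5e-10), and 19.4 and 21.3 RPKM at ZT13 and 11, 12.2 and 11.9 RPKM at ZT1 in *acd6-1* (0.75, SE 0.1, adjusted p = 2e-05). *RRS1* was higher at ZT13 by 0.68 in Col-0 (SE 0.09, adjusted p = 8.2e-06) and by 0.79 in *acd6-1* (SE 0.11, adjusted p = 1.2e-05). No library of ZT1 reached the level of a ZT13 library of the same genotype for either gene. The largest evening rise in Col-0 was that of AT1G63880, a TIR gene, with 34, 31.6 and 35.9 RPKM at ZT13 and 13.3, 10.6 and 11 RPKM at ZT1 (1.47, SE 0.11, adjusted p = 6.9e-09). In *acd6-1* it had 30.7 and 35.2 RPKM at ZT13 and 27.7, 26.1 and 24.7 RPKM at ZT1 (0.32, SE 0.13, adjusted p = 0.053), so that the genotypes were close in the evening and apart in the morning. AT1G63350 (1.25, SE 0.16, adjusted p = 3.9e-06) and AT1G17610 (1.22, SE 0.11, adjusted p = 4.9e-08) were also among the largest in Col-0. In *acd6-1* the largest rises were those of AT1G17600 (0.84, SE 0.13, adjusted p = 5.4e-05) and AT1G72840 (0.83, SE 0.14, adjusted p = 0.0001), then *RRS1*, *RPS4* and AT1G63350 (0.57, SE 0.18, adjusted p = 0.018). The call of AT1G63350 was lost without *acd6-1* library 2 at ZT13 (adjusted p = 0.18).

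*RPP4* turned with genotype. It had 28.4, 23.1 and 27 RPKM at ZT13 and 13.8, 11.1 and 12.9 RPKM at ZT1 in Col-0 (1, SE 0.11, adjusted p = 5.6e-07), and 48.3 and 53.7 RPKM at ZT13 and 63.5, 68.5 and 71.6 RPKM at ZT1 in *acd6-1* (-0.41, SE 0.12, adjusted p = 0.014). The fall in *acd6-1* was not called without *acd6-1* library 1 at ZT13 (adjusted p = 0.13), and that of *RLM3* (-0.33, SE 0.1, adjusted p = 0.012) likewise (adjusted p = 0.14). *RPP5* fell by 0.34 (SE 0.09, adjusted p = 0.0069) and *TAO1*, whose product acts in the response to a Pseudomonas effector, by 0.48 (SE 0.12, adjusted p = 0.0037) in *acd6-1*. *RPP1* was lower at ZT13 in both genotypes, by 0.65 in *acd6-1* (SE 0.09, adjusted p = 2.5e-05) and by 0.2 in Col-0 (SE 0.08, adjusted p = 0.046). In Col-0 that call was lost without ZT1 library 1 (adjusted p = 0.14) or ZT13 library 2 (adjusted p = 0.19).

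The *lux-1* mutation in the *acd6-1* background changed a minority of the NLR genes at ZT1. At ZT1, 13 of the 54 NLR genes tested were called lower in *acd6-1lux-1* than in *acd6-1* and 5 higher, with a median of -0.06 against 0.09 over all genes, of which 22.8% were called higher and 10.9% lower. Without the 4 genes that passed the filter only through groups carrying *acd6-1*, 11 of 50 were lower and 5 higher, with a median of -0.05. With median-of-ratios scaling 16 of the 54 were lower and 1 higher, beside 17.4% and 12.8% of all genes. The genes called lower were 6 of the coiled-coil class (*RPS2*, *RPM1*, *RPP13*, *ZAR1*, AT1G15890 and AT4G27220) and 7 of the TIR class (AT5G41740, AT5G41750, AT1G56540, *WRR4*, AT1G17615, *RPP1* and *RPP5*). The count of lower genes was 8 without *acd6-1* library 2 or 3 and 7 without *acd6-1lux-1* library 2, and 13 without *acd6-1lux-1* library 3, the one with few mapped reads.

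AT5G41740 and AT5G41750, the genes with the largest *acd6-1* effect on the log2(RPKM + 1) scale, also had the largest decrease on it. The 2 comparisons share the *acd6-1* libraries, so part of this match is built in. AT5G41740 had 49.7, 32.4 and 63.7 RPKM in *acd6-1lux-1* and 129, 215 and 224 RPKM in *acd6-1* (log2 fold change -1.95, SE 0.24, adjusted p = 2.1e-05). AT5G41750 had 58.4, 38.8 and 77.4 RPKM in *acd6-1lux-1* and 146, 227 and 242 RPKM in *acd6-1* (-1.82, SE 0.25, adjusted p = 5.6e-05). Every *acd6-1lux-1* library was below every *acd6-1* library and above every Col-0 library for both genes. AT1G56540 had 4.08, 3.17 and 4.42 RPKM in *acd6-1lux-1* and 6.29, 11.7 and 13 RPKM in *acd6-1* (-1.16, SE 0.18, adjusted p = 0.00022). Its neighbor *WRR4* had 35.6, 27.5 and 41.9 RPKM in *acd6-1lux-1* and 41.3, 73.4 and 67.6 RPKM in *acd6-1* (-0.76, SE 0.18, adjusted p = 0.0047), where the highest *acd6-1lux-1* library passed the lowest *acd6-1* library. The first *acd6-1* library was the lowest of its group for AT5G41740, AT5G41750, AT1G56540, *WRR4*, *RPS2* and *ZAR1*. AT1G17615 had 92 reads over the 3 *acd6-1lux-1* libraries and 203 over the 3 *acd6-1* libraries (-0.74, SE 0.21, adjusted p = 0.017), and was not called without *acd6-1lux-1* library 2 (adjusted p = 0.12).

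Among the coiled-coil receptors *RPS2* had 13.9, 13.9 and 17.1 RPKM in *acd6-1lux-1* and 19.9, 28 and 28.1 RPKM in *acd6-1* at ZT1 (-0.71, SE 0.11, adjusted p = 0.00026). *ZAR1* had 170, 151 and 174 RPKM in *acd6-1lux-1* and 206, 270 and 267 RPKM in *acd6-1* (-0.58, SE 0.11, adjusted p = 0.001). AT1G15890 had 3.29, 2.39 and 4.02 RPKM in *acd6-1lux-1* and 4.99, 6.46 and 6.06 RPKM in *acd6-1* (-0.7, SE 0.14, adjusted p = 0.0017). The libraries of the genotypes were apart for all of these, with *acd6-1lux-1* between *acd6-1* and Col-0. *RPM1* (-0.25), *RPP13* (-0.23) and, of the TIR class, *RPP5* (-0.21) and *RPP1* (-0.2) were lower by small amounts, with adjusted p values of 0.075 to 0.094.

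The 5 genes called higher were AT5G47250, AT1G62630, AT1G63880, AT5G46510 and AT1G63360. AT5G47250, of the coiled-coil class, had 6.37, 7.2 and 6.86 RPKM in *acd6-1lux-1* and 4.53, 3.87 and 5.4 RPKM in *acd6-1* (0.49, SE 0.13, adjusted p = 0.011), and its call held under every alternative other than the fold criterion. The other calls did not hold under median-of-ratios scaling, quantile normalization or edgeR. AT1G62630 was higher by 0.31 (adjusted p = 0.024), AT1G63880 by 0.27 (adjusted p = 0.09), and AT5G46510 and AT1G63360 by 0.22 each (adjusted p = 0.083), with libraries of AT1G63880 and AT1G63360 that overlapped. The count of higher genes was 3 without any 1 of the *acd6-1* libraries or *acd6-1lux-1* library 3, and 2 without *acd6-1lux-1* library 1.

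At ZT13 no difference between *acd6-1lux-1* and *acd6-1* was called for any of the 54 NLR genes by limma or by edgeR, and 3 passed an unadjusted p of 0.05. The median log2 fold change was 0, against 0.02 over all genes, of which 1.15% were called higher and 0.346% lower. AT5G41740 had 221 and 226 RPKM in *acd6-1lux-1* and 219 and 254 RPKM in *acd6-1* (-0.08, SE 0.29), *RPS2* had 34.3 and 34.4 RPKM in *acd6-1lux-1* and 35.1 and 37.1 RPKM in *acd6-1* (-0.07, SE 0.14), and *ZAR1* had 269 and 273 RPKM in *acd6-1lux-1* and 253 and 280 RPKM in *acd6-1* (0.02, SE 0.13). The largest decreases were those of AT1G17615 (-0.57, SE 0.26, adjusted p = 0.47) and *WRR4* (-0.43, SE 0.21, adjusted p = 0.53). With 2 libraries per genotype, the libraries did not overlap for 20 of the 54 genes, as for 41.4% of all genes.

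In the Col-0 background, 5 of the 54 NLR genes tested were called lower in *lux-1* at ZT1 and 7 higher, with a median of 0.11 against 0.08 over all genes, of which 13.2% were called higher and 4.61% lower. With median-of-ratios scaling 3 were higher and 5 lower, beside 6.78% and 7.6% of all genes. The genes called lower were AT5G41740, AT5G41750, AT1G56540, *RPP13* and *ZAR1*. AT5G41740 had 9.61, 8.06 and 6.63 RPKM in *lux-1* and 18.2, 23.7 and 30.8 RPKM in Col-0 (-1.45, SE 0.24, adjusted p = 0.00053). AT5G41750 had 5.81, 4.37 and 3.53 RPKM in *lux-1* and 9.99, 12.2 and 19 RPKM in Col-0 (-1.38, SE 0.25, adjusted p = 0.0012). *RPP13* had 25.4, 24.8 and 24.4 RPKM in *lux-1* and 34.4, 33.2 and 35 RPKM in Col-0 (-0.44, SE 0.09, adjusted p = 0.0047). The libraries were apart for each. *RPP13* lies 14 coding genes from *LUX* in the gene order of TAIR10.1, so a difference between the lines at linked sequence and the *lux-1* mutation cannot be told apart for it. *ZAR1* had 66.6, 59.6 and 49.9 RPKM in *lux-1* and 73.2, 72.3 and 82.3 RPKM in Col-0 (-0.37, SE 0.11, adjusted p = 0.033), and AT1G56540 was lower by 0.54 (SE 0.18, adjusted p = 0.066). The call of *ZAR1* was lost without Col-0 library 3 (adjusted p = 0.13) or *lux-1* library 3 (adjusted p = 0.14), and that of AT1G56540 without either of these, Col-0 library 2 or *lux-1* library 1 (adjusted p from 0.15 to 0.19).

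*RPP13*, *ZAR1*, AT1G56540, AT5G41740 and AT5G41750 were also among the 13 called lower in *acd6-1lux-1* against *acd6-1* at ZT1. The 2 comparisons share no library. The overlap was thus 5 of the 5 genes lower in *lux-1* and 5 of the 13 lower in *acd6-1lux-1*, and no gene was higher in both. Of all genes, 4.61% were lower in *lux-1* and 10.9% in *acd6-1lux-1*. The share lower in both was not counted, so the overlap has no figure over all genes beside it. The limit given for *RPP13* above holds in both comparisons, as the double mutant came from a cross with *lux-1*. *RPP5* was lower in *acd6-1lux-1* and, as given next, higher in *lux-1*. The *lux-1* effect was larger in size in the *acd6-1* background than in Col-0 by 0.5 for AT5G41740 (SE 0.33, adjusted p = 0.36) and by 0.44 for AT5G41750 (SE 0.35, adjusted p = 0.44), which did not pass the test.

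**Figure D3:**
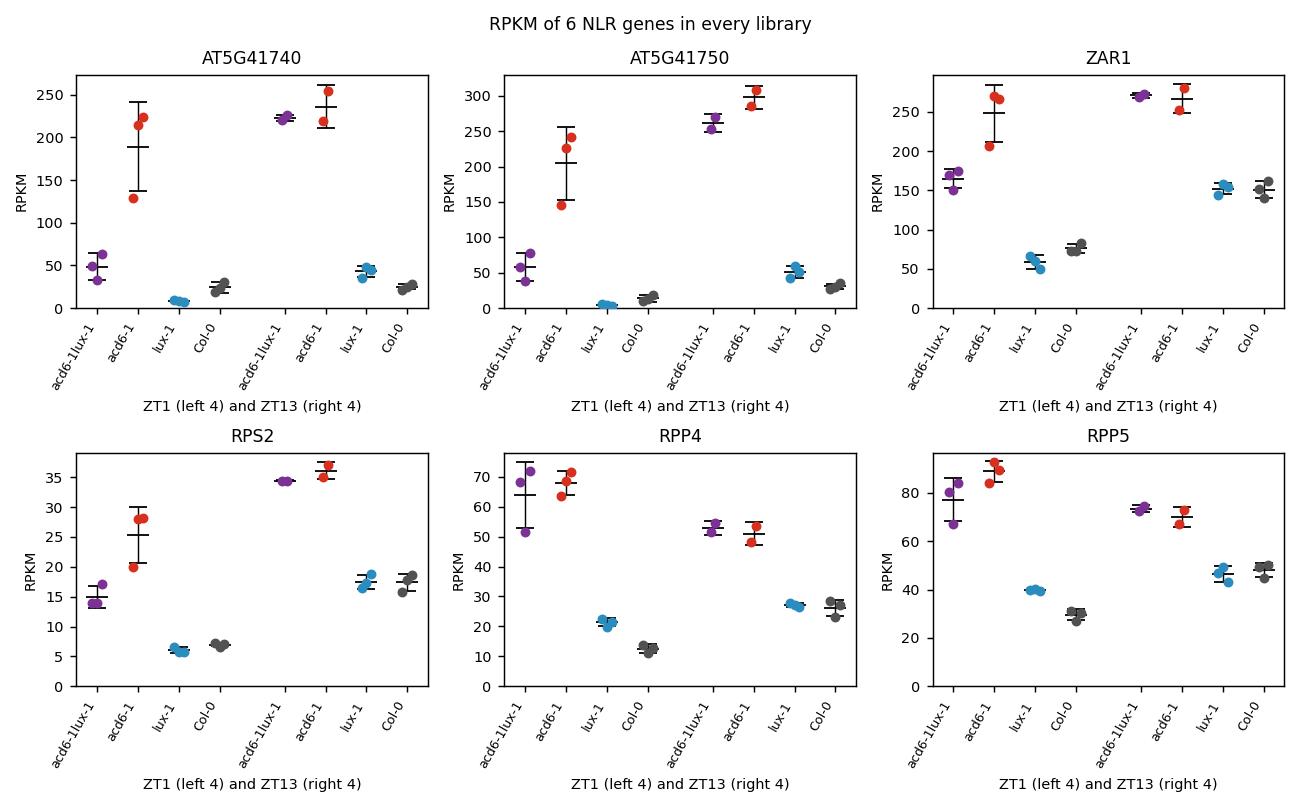
RPKM (y axis, from 0) of AT5G41740, AT5G41750, *ZAR1*, *RPS2*, *RPP4* and *RPP5* in each library (points), by genotype at ZT1 (left 4 columns of each panel) and ZT13 (right 4 columns), with the mean and SD of each group as bars. At ZT1 the *acd6-1lux-1* points of AT5G41740 (32.4 to 63.7 RPKM) lie below the *acd6-1* points (129 to 224 RPKM), and at ZT13 the groups overlap at 219 to 254 RPKM.

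Of the 7 NLR genes higher in *lux-1* at ZT1, 4 belong to the *RPP4* to *RLM3* stretch. *RPP4* had 22.6, 19.9 and 21.5 RPKM in *lux-1* and 13.8, 11.1 and 12.9 RPKM in Col-0 (0.72, SE 0.11, adjusted p = 0.0003). *RPP5* had 39.7, 40.3 and 39.6 RPKM in *lux-1* and 31, 26.9 and 30.5 RPKM in Col-0 (0.43, SE 0.08, adjusted p = 0.0025). AT4G16960 had 4.55, 4.14 and 4.32 RPKM in *lux-1* and 2.87, 1.92 and 3 RPKM in Col-0 (0.58, SE 0.15, adjusted p = 0.016). All *lux-1* libraries were above all Col-0 libraries for these and for *SNC1*, which was higher by 0.2 (SE 0.07, adjusted p = 0.083). The call of AT4G16960 was at the threshold without Col-0 library 2 (adjusted p = 0.1). The others were AT1G12290 (0.43, adjusted p = 0.09), AT5G46520 (0.28, adjusted p = 0.098) and *RPP8* (0.18, adjusted p = 0.061). The calls of AT1G12290 and AT5G46520 were lost under most alternatives, with adjusted p values up to 0.29 and 0.38. The count of higher genes was 2 without Col-0 library 2, 3 without *lux-1* library 1 and 4 without Col-0 library 1 or *lux-1* library 3, and the count of lower genes was 3 without Col-0 library 3 or *lux-1* library 3.

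Genes around the chromosome 4 NLR loci were counted after the values were seen. Of 35 genes that differed between *lux-1* and Col-0 by more than 1 in the same direction at both times, 17 lay on chromosome 4, 0.519% of the genes tested there against 0.164% over the genome, and of the 28 such genes between *acd6-1lux-1* and *acd6-1*, 2 did. None of the 175 genes tested within 100 coding genes of the *RPP4* to *RLM3* stretch was among the 17, against 3 of 161 around *RPS2* and 2 of 164 around AT4G27190 and AT4G27220. AT4G27190 and AT4G27220 had no read in any *lux-1* library, while over the 3 Col-0 libraries AT4G27220 had 2 reads at ZT1 and 11 at ZT13, and AT4G27190 had 4 and 7 reads. In *acd6-1lux-1*, which also carries *lux-1*, AT4G27220 had 52 reads at ZT1 and 92 at ZT13, and AT4G27190 had 8 and 5 reads. For loci near *RPS2* and AT4G27220, a difference between the lines in nearby sequence and the *lux-1* mutation cannot be told apart in *lux-1* against Col-0 alone. *LUX* itself lies on chromosome 3, and the cause of the missing reads was not tested. *RPP4* was not called at ZT13, with 27.8, 27.3 and 26.4 RPKM in *lux-1* and 28.4, 23.1 and 27 RPKM in Col-0 (0.05, SE 0.11, adjusted p = 0.91).

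In the evening 1 of the 54 NLR genes was called between *lux-1* and Col-0, on the lower side, with a median of -0.04 against -0.03 over all genes, of which 2.08% were called higher and 1.85% lower. The count of lower genes was 0 without Col-0 library 1 or 3 or any 1 of the *lux-1* libraries at ZT13, 2 without Col-0 library 2 at ZT13, and 0 under most other alternatives. No gene was called higher by limma or edgeR, and 2 passed an unadjusted p of 0.05. Without *lux-1* library 1 at ZT13, *acd6-1* library 1 at ZT1 or *acd6-1lux-1* library 2 or 3 at ZT1, 1 gene was called higher. The 2 genes were AT5G41740, with 35.5, 48.5 and 44.9 RPKM in *lux-1* and 21.7, 24.9 and 27.8 RPKM in Col-0 (0.76, SE 0.24, adjusted p = 0.11), and AT5G41750, with 42.6, 59.3 and 51.5 RPKM in *lux-1* and 27.5, 29.9 and 34.8 RPKM in Col-0 (0.71, SE 0.25, adjusted p = 0.17). In both, the *lux-1* libraries lay above the Col-0 libraries in the evening and below them in the morning.

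**Figure D4:**
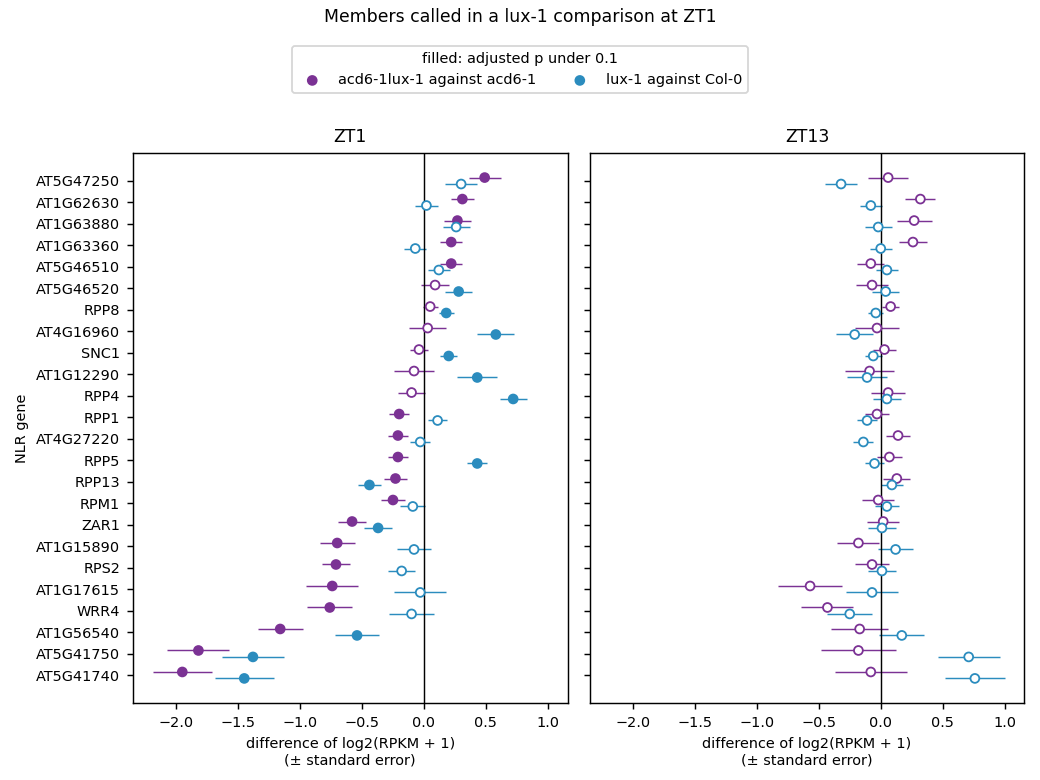
Difference of log2(RPKM + 1) (x axis, with standard error) for *acd6-1lux-1* against *acd6-1* and *lux-1* against Col-0, for the NLR genes called in at least 1 of the 2 comparisons at ZT1 (y axis), at ZT1 (left) and ZT13 (right), with filled points for an adjusted p under 0.1. AT5G41740 and AT5G41750 lie at -1.95 and -1.82 in *acd6-1lux-1* and at -1.45 and -1.38 in *lux-1* at ZT1, and no point of ZT13 is filled.

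The dependence of the *lux-1* effect on time was tested in a comparison added after the values were seen. Effects are signed, so a decrease that was weaker at ZT13 counts as an effect that exceeded that at ZT1. In Col-0 the effect at ZT13 exceeded that at ZT1 for 3 NLR genes and fell below it for 7, with 3.75% and 9.4% of all genes, and with median-of-ratios scaling for 4 and 2, with 4.59% and 3.54%. The 3 were AT5G41740 (2.22, SE 0.33, adjusted p = 0.00038), AT5G41750 (2.09, SE 0.35, adjusted p = 0.001) and *RPP13* (0.53, SE 0.13, adjusted p = 0.018). AT4G16960 (-0.79, SE 0.21, adjusted p = 0.026), *RPP4* (-0.67, SE 0.16, adjusted p = 0.013) and *RPP5* (-0.47, SE 0.12, adjusted p = 0.018) were among the 7. The count of 7 was 3 without Col-0 library 2 at ZT1 or library 3 at ZT13, and 4 without Col-0 library 1 at ZT13. The count of 3 was 5 without *acd6-1* library 1 at ZT1. In *acd6-1* the effect at ZT13 exceeded that at ZT1 for 5 NLR genes, AT5G41740 (1.87, SE 0.37, adjusted p = 0.0069), AT5G41750 (1.64, SE 0.39, adjusted p = 0.022), AT1G56540 (1, SE 0.29, adjusted p = 0.064), *RPS2* (0.65, SE 0.18, adjusted p = 0.054) and *ZAR1* (0.6, SE 0.17, adjusted p = 0.059). Over all genes 3.12% exceeded and 3.71% fell below, and no NLR gene fell below by limma or edgeR, with 2 at an unadjusted p under 0.05. The calls of AT1G56540, *RPS2* and *ZAR1* were lost without *acd6-1* library 2 or 3 at ZT1, *acd6-1lux-1* library 2 at ZT1, *acd6-1* library 1 at ZT13 or either *acd6-1lux-1* library at ZT13, which left 2 calls.

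Whether the *lux-1* effect at ZT1 depended on the *acd6-1* background was tested as well. It was lower in *acd6-1* than in Col-0 for 4 NLR genes. It was higher for none by limma or edgeR, with 2 higher at an unadjusted p under 0.05 and 1 called without *acd6-1lux-1* library 2, beside 8.39% lower and 7.65% higher over all genes. The 4 were *RPP4* (-0.82, SE 0.16, adjusted p = 0.0067), *RPP5* (-0.63, SE 0.12, adjusted p = 0.0055), AT1G15890 (-0.63, SE 0.2, adjusted p = 0.059) and *RPS2* (-0.53, SE 0.16, adjusted p = 0.052). *RPP4*, *RPP5* and *RPS2* lie on the same chromosome as *ACD6*. For these genes a difference between the lines at linked sequence and a dependence on the *acd6-1* mutation cannot be told apart. The call of AT1G15890 was lost under 12 alternatives, among them pseudocounts of 0.1 and 0.5, edgeR and only the libraries compared (adjusted p up to 0.36). That of *RPS2* was lost under 7, only the libraries compared among them (adjusted p up to 0.13). *RPP4* had 68.2, 51.4 and 72 RPKM in *acd6-1lux-1* and 63.5, 68.5 and 71.6 RPKM in *acd6-1* (-0.1, adjusted p = 0.54), beside the rise in *lux-1* given above. The count of 4 was 11 without *acd6-1lux-1* library 3 and 8 without *acd6-1* library 1. It was 2 without Col-0 library 2, *lux-1* library 1, *acd6-1* library 2 or 3 or *acd6-1lux-1* library 2.

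Genes that act with NLR proteins were read from a list of 32, all of which were tested. It holds lipase-like genes, helper NLR genes, membrane partners and guarded proteins, chaperones, and genes of NLR turnover, repression and *SNC1* modification. In *acd6-1*, 24 were higher than in Col-0 at ZT1, with a median log2 fold change of 1.14, beside 37.2% of all genes higher and 31% lower. At ZT13, 23 were higher and 2 lower, with a median of 0.82, beside 22.3% and 26.5% of all genes. At ZT1 none was lower by limma, at an adjusted or an unadjusted p, and 2 were lower by edgeR and by limma with median-of-ratios scaling. At ZT13 that scaling gave 0 lower and edgeR 1. The groups of the list differed. Of the 11 genes of turnover, repression and *SNC1* modification, 6 were higher at ZT1, with a median of 0.25. At ZT13, 4 of these 11 were higher and 2 lower, with a median of -0.03. By median at ZT1, the lipase-like genes were the highest group of the list, at 3.25 against 1.81 for the helper NLR genes. Single genes of other groups, *BAP1* among them (264 and 32.8 RPKM on average in *acd6-1* and Col-0), changed by similar amounts. *EDS1* had 120, 148 and 153 RPKM at ZT1 in *acd6-1* and 18.5, 16 and 19.4 RPKM in Col-0 (log2 fold change 2.89, SE 0.15, adjusted p = 1.1e-10). *PAD4* had 157, 206 and 213 RPKM in *acd6-1* and 10.5, 8.82 and 11.7 RPKM in Col-0 (4.09, adjusted p = 1.1e-11), a larger difference on the log2(RPKM + 1) scale than that of any NLR gene tested, an order that for AT1G17615 depends on the pseudocount. *SAG101* was higher by 2.59 (adjusted p = 2.6e-08), and all 5 helper NLR genes were higher, *ADR1* by 1.81 (adjusted p = 3.8e-09) and *ADR1-L1* by 2.28 (adjusted p = 1.5e-10). Of the 6 chaperone genes, which fold NLR proteins, 4 were higher, *HSP90.1* by 2.88 (adjusted p = 6e-07) and *SGT1A* by 1.77 (adjusted p = 2.7e-09).

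Between *acd6-1lux-1* and *acd6-1* at ZT1, 16 of the 32 were lower and 3 higher, with a median of -0.24, beside 10.9% of all genes lower and 22.8% higher. With median-of-ratios scaling, as with edgeR, 18 were lower and 1 higher. *EDS1* had 100, 89.4 and 116 RPKM in *acd6-1lux-1* and 120, 148 and 153 RPKM in *acd6-1* (-0.46, SE 0.15, adjusted p = 0.033). *PAD4* fell by 0.62 (adjusted p = 0.0064), *SAG101* by 0.87 (adjusted p = 0.0094) and *ADR1* by 0.68 (adjusted p = 0.0013). *RIPK*, a kinase that phosphorylates *RIN4*, had 93.6, 63.2 and 112 RPKM in *acd6-1lux-1* and 192, 241 and 261 RPKM in *acd6-1* (-1.39, adjusted p = 4.2e-05). *BAP1*, a negative regulator of cell death and of *SNC1*, had 94.1, 69.6 and 138 RPKM in *acd6-1lux-1* and 230, 260 and 302 RPKM in *acd6-1* (-1.43, adjusted p = 5.7e-05). In each of these the *acd6-1lux-1* libraries lay below the *acd6-1* libraries. At ZT13 none of the 32 was called in either direction by limma or edgeR, and none passed an unadjusted p of 0.05. In *lux-1* against Col-0 at ZT1, 5 were higher and 7 lower, *PAD4* by 0.66 (adjusted p = 0.0085) on the higher side, and *RIPK* by 1.24 (adjusted p = 0.0002) and *BAP1* by 2.58 (adjusted p = 6e-08) on the lower. Of all genes 13.2% were higher and 4.61% lower there, and median-of-ratios scaling and edgeR each gave 2 higher and 8 lower among the 32.

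The genes of a touch and stress list, added after the values were seen, also differed at ZT1. Its 8 genes summed to 1540 to 2280 RPKM in *acd6-1lux-1* and 4140 to 5050 RPKM in *acd6-1* at ZT1, and to 386 to 600 RPKM in *lux-1* and 1710 to 1950 RPKM in Col-0. At ZT13 the sums were 5890 to 6040 RPKM in *acd6-1lux-1*, 5630 to 6210 RPKM in *acd6-1*, 2950 to 3410 RPKM in *lux-1* and 2070 to 2840 RPKM in Col-0. All 8 were lower in *acd6-1lux-1* (median -1.81) and 7 in *lux-1* (median -2.73) at ZT1, beside 10.9% and 4.61% of all genes. None was lower at ZT13 by limma or edgeR or at an unadjusted p under 0.05. The part of these genes' regulation in the lower morning level of AT5G41740, AT5G41750 and *ZAR1* in *lux-1* was not tested. Flower markers also differed at ZT13, with sums of 16.2 to 27 RPKM in *acd6-1lux-1*, 3.09 to 4.4 RPKM in *acd6-1*, 15.3 to 33.6 RPKM in *lux-1* and 1.22 to 4.75 RPKM in Col-0. At ZT1 the sums were 1.58 to 16.6 RPKM in *acd6-1lux-1*, 5.81 to 8.65 RPKM in *acd6-1*, 4.45 to 20.2 RPKM in *lux-1* and 1.94 to 4.6 RPKM in Col-0, and both mutant and control ranges overlapped. Of 5 root markers, CASP1, CASP2, EXPA7 and COBL9 stayed at or below 0.783 RPKM in every library, and PYK10 had 52.3 to 233 RPKM. The part of leaf, flower and root tissue in the NLR values was not tested.

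NLR genes often sit in clusters, and 38 of the 56 lay within 5 coding genes of another in the TAIR10.1 gene order, in 16 clusters, with 23 on chromosome 1, 4 on chromosome 3, 10 on chromosome 4 and 19 on chromosome 5. Pearson's r of log2(RPKM + 1) between neighbors over the 22 libraries was -0.2 to 0.98 for the 22 neighboring pairs and above 0.8 for 13, and these libraries share genotype and time. With the group means taken out it was -0.07 to 0.98 with a median of 0.4, and above 0.8 for 4 pairs. These were AT5G41740 with AT5G41750 (0.98), *RPP4* with *SNC1* (0.87), *RPP5* with AT4G16960 (0.86) and *RPS4* with *RRS1* (0.84). Shared reads can add to r between near-identical neighbors. *SUMM2* and its neighbor AT1G12290 had the lowest value, -0.2.

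Over the 8 group means, the 5 genes most like *SNC1* were *DUR3*, a urea transporter gene (r = 0.9985), AT5G55460, AT4G36140, *VIK* and *IWS1*. The 5 most like AT5G41750 were AT2G44500 (r = 0.9963), *ZAT7*, a zinc finger gene, AT2G26190, *MPK3*, a MAP kinase gene of pattern-triggered immunity, and AT3G57640. These are values over 8 points that share the *acd6-1* effect.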

How the data were processed

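RNA-seq libraries of whole plants were single-read. The authors deposited 1 table of RPKM per transcript, made with CASAVA and TAIR10 per the submitters' processing notes, with gene counts scaled by coding length and mapped reads (97.43% of the lengths used are multiples of 3). The authors also deposited a read count for each library as total and mapped reads. The aligner's treatment of reads with several matches is not given in the sources used here. Whole reads were recovered for 100% of the RPKM values within 0.001 of a whole number, which served edgeR as an alternative. Of the value columns, 1 maps to no sample and was not used. Symbols and gene order came from RefSeq's TAIR10.1 table, which matched 24867 of 25218 transcripts.

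Genes averaging over 0.3 RPKM in any group were tested with limma 3.58.1 (trended prior) in R 4.3.3 on log2(RPKM + 1), with the 22 libraries in 1 model of 8 groups, and calls were made at 0.1 after Benjamini-Hochberg adjustment. edgeR 4.0.16 was used as well. Tables were handled with pandas 2.3.3 and numpy 2.4.6 and plots were drawn with matplotlib 3.10.9, under Python 3.11.15. The scripts were tested on simulated data. Alternatives were pseudocounts of 0.1 and 0.5, the filter at 1 RPKM or dropped, scaling by median of ratios or by quantiles, a fit on the compared libraries alone, edgeR, replicate blocks, an adjusted p under 0.05, a fold criterion of 2 and each library left out. Replicates are separate biological samples per the study's methods.

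The NLR genes, the gene lists and the tests were chosen with earlier results of these data known. Genes named are textbook NLR genes, the 5 largest calls in each direction per comparison, the 3 highest and 3 lowest levels and the 5 genes most like *SNC1* and AT5G41750, by Pearson's r over group means. The tests of the *lux-1* effect between times, the touch and stress list, the counts of chromosome 4 neighbors and the crossed block were added after values were seen. Genes outside this rule that are named with values were chosen after their values were seen. The comparisons of *acd6-1* with Col-0 and of *acd6-1lux-1* with *acd6-1* share the *acd6-1* libraries, and those of *acd6-1* and *lux-1* with Col-0 share the Col-0 libraries. AT5G47260 was not analysed here, and 1 gene that enters the counts is not reported here by name. No sequences are printed.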

Additional observations from a re-analysis of the deposited data

Results flagged for a closer look

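These results differ between times or backgrounds by a test of the difference itself, on the log2(RPKM + 1) scale, and several rest on single libraries or on the scaling. The *acd6-1* effect at ZT13 minus that at ZT1 was 0.34 for *DAR4*, -1.41 for *RPP4*, -1.15 for AT1G63880, -1.03 for *RPP5*, -0.98 for *SUMM2* and -0.98 for AT1G15890. The *lux-1* effect at ZT1 in *acd6-1* minus that in Col-0 was -0.82 for *RPP4*, -0.63 for *RPP5*, -0.63 for AT1G15890 and -0.53 for *RPS2*. The calls of AT1G15890 and *RPS2* there were lost under 12 and 7 alternatives. The limit of linked sequence given above for *RPP4*, *RPP5* and *RPS2* holds there too. The *lux-1* effect at ZT13 minus that at ZT1 in Col-0 was 2.22 for AT5G41740, 2.09 for AT5G41750, 0.53 for *RPP13*, -0.79 for AT4G16960, -0.67 for *RPP4*, -0.61 for AT5G47250 and -0.52 for AT1G17600. In *acd6-1* it was 1.87 for AT5G41740, 1.64 for AT5G41750, 1 for AT1G56540, 0.65 for *RPS2* and 0.6 for *ZAR1*. Of the differences in Col-0, the call of AT5G47250 was lost under median-of-ratios scaling and without Col-0 library 2 at ZT1, Col-0 library 1 or 3 at ZT13 or *lux-1* library 2 at ZT13 (adjusted p up to 0.12). That of AT1G17600 was lost under 11 alternatives, with median-of-ratios scaling, quantile normalization, edgeR and 7 of the single libraries left out among them (adjusted p up to 0.19).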

How the results depend on the processing

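Of 70 log2 fold changes of named NLR genes, 47 were called under every alternative other than the fold criterion, and 0 changed sign. Of 24 counts of called NLR genes, 10 stayed within 1.5 times on leaving out each of the 22 libraries. On leaving out 1 library the count of higher genes ranged from 2 to 6 and of lower genes from 7 to 13 in *acd6-1lux-1* against *acd6-1* at ZT1, and from 2 to 10 and from 3 to 5 in *lux-1* against Col-0 at ZT1. At ZT13 in *lux-1* against Col-0 the ranges were 0 to 1 and 0 to 2. For ZT13 against ZT1 the lower genes ranged from 0 to 1 in Col-0 and from 3 to 12 in *acd6-1*. The *acd6-1* effect was more positive at ZT13 than at ZT1 for 0 to 1 genes, and the *lux-1* effect at ZT1 was higher in *acd6-1* than in Col-0 for 0 to 1 and lower for 2 to 11. On the signed scale, the *lux-1* effect was more positive at ZT13 than at ZT1 for 3 to 5 and more negative for 3 to 9 genes in Col-0. In *acd6-1* it was more positive for 2 to 7.

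With a fold criterion of 2 the counts were 29 higher for *acd6-1* against Col-0 at ZT1, 15 higher and 0 lower at ZT13, 0 higher and 3 lower for *acd6-1lux-1* against *acd6-1* at ZT1, 0 higher and 2 lower at ZT1 in *lux-1* against Col-0, 0 lower at ZT13, 12 higher and 0 lower for ZT13 against ZT1 in Col-0 and 0 and 0 in *acd6-1*. For the differences of effects they were 0 larger and 3 smaller for *acd6-1* between times, 0 lower for *lux-1* between backgrounds, 0 smaller between times in Col-0 and 2 larger in *acd6-1*. Here and below, larger and smaller refer to signed effects, and the 2 larger in *acd6-1* were weaker decreases at ZT13. With an adjusted p under 0.05 they were 2 higher and 8 lower for *acd6-1lux-1* against *acd6-1* at ZT1, 3 higher for *lux-1* at ZT1, 0 lower at ZT13, 2 lower between backgrounds and 2 larger between times in *acd6-1*. With only the libraries compared they were 1 higher and 7 lower for *acd6-1lux-1* at ZT1, 4 higher for *lux-1* at ZT1, 2 higher and 0 lower at ZT13, 2 lower between backgrounds and 2 larger between times in *acd6-1*. Median-of-ratios scaling gave 1 higher for *acd6-1lux-1* at ZT1, 3 higher for *lux-1* at ZT1, 0 lower at ZT13, 8 higher at ZT13 than ZT1 in *acd6-1* and 2 smaller *lux-1* effects in Col-0, and quantile normalization gave 2, 3, 0, 11 and 4, with 2 lower at ZT13 than ZT1 in Col-0. edgeR gave 1 higher for *acd6-1lux-1* at ZT1, 3 higher for *lux-1* at ZT1, 3 lower at ZT13 than ZT1 in Col-0 and 11 higher in *acd6-1*, 3 larger *acd6-1* effects at ZT13, and 5 larger and 3 smaller *lux-1* effects at ZT13 in Col-0. A pseudocount of 0.5 or no filter gave 0 lower for *lux-1* at ZT13. Apart from median-of-ratios scaling and quantile normalization, the share of all genes under these alternatives was not counted. The cause of these changes was not tested.

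Same-numbered libraries did not deviate together in every pair (r of deviations 0.209, 0.204 and 0.096 for *acd6-1* and Col-0 at ZT1, and -0.204, -0.224 and 0.16 for *lux-1* and Col-0 at ZT13), so the number was not taken as a pairing. A replicate block by the number in the title kept 67 of 70 named calls and gave 3 higher genes for *acd6-1lux-1* against *acd6-1* at ZT1, and 1 higher and 0 lower for *lux-1* against Col-0 at ZT13. A block by the number in the description also kept 67 and gave 1 and 0 there. At ZT13 the same-numbered *acd6-1lux-1* and *acd6-1* libraries correlated at -0.124, and a block with these numbers crossed, chosen after seeing the data, gave 0 higher and 0 lower genes between them, and 1 higher and 0 lower for *lux-1* against Col-0. The median NLR gene had 334.25 reads per library, and 7 NLR genes had a median of under 30 reads, which limits the precision of their values.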
